A study of Mus musculus with 32 samples.

Results

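The growth hormone and insulin-like growth factor (IGF) axis was followed in mouse liver through 10 genes, listed by name as parts of the pathway: Igf1, Igfals, Ghr, Jak2, Stat5b, Socs2, Cish, Igfbp1, Igfbp2 and Igfbp3. They are 10 of 17892 gene symbols on either version of the bead array used. The mice were C57bl/6J OlaHsd and their livers were taken at 20 weeks of age. During gestation mothers ate a diet low in protein (labelled 9%, casein at 90 g per kg) or a control diet (labelled 18%), and the offspring ate a high-fat diet (labelled HighFat, 36% SF) or a control diet (labelled Control) for 14 weeks from 6 weeks of age. Each sex thus had 4 groups of 4 mice, HighFat 9%, Control 9%, HighFat 18% and Control 18%, which gave 8 groups and 32 arrays, 1 per mouse. The labels call the mice biological replicates but do not give their litters, so mice of 1 litter cannot be recognised. Females and males were run on different array versions, so levels were compared only within a sex, and only differences between diets were set across the sexes.

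Growth hormone from the pituitary binds its receptor on the hepatocyte, the receptor-bound kinase JAK2 phosphorylates STAT5b, and STAT5b enters the nucleus and switches on target genes. Among the targets are the circulating growth factor IGF1, the acid-labile subunit (Igfals) that holds IGF1 and a binding protein in a long-lived complex in blood, and the inhibitors SOCS2 and CISH, which feed back on the receptor. The binding proteins carry IGF1 in blood, and Igfbp1 is also known as a gene that insulin represses and fasting induces. In rodents the pituitary releases growth hormone in pulses in males and more continuously in females, and many sex-biased liver genes depend on that pattern.

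The stretch from 250 bases before to 50 bases after an annotated start is printed for 3 members, from RefSeq on GRCm38.p6 and on the plus strand, because these hold the motifs tied to the signals above. Cish lies at chr9:107296409-107296708, Igfals at its second listed start at chr17:24877981-24878280, and Igfbp1 at chr11:7197537-7197836. Capitals mark the palindrome TTCNNNGAA that STAT5 is known to bind (Cish, Igfals) and CAAAACAA, the core of the insulin response element (Igfbp1).
Cish: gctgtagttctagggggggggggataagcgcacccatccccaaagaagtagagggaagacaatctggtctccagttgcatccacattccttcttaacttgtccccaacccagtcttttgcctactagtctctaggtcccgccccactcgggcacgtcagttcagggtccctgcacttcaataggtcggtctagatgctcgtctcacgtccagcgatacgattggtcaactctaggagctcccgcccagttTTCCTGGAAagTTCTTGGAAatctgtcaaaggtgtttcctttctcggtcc
Igfals: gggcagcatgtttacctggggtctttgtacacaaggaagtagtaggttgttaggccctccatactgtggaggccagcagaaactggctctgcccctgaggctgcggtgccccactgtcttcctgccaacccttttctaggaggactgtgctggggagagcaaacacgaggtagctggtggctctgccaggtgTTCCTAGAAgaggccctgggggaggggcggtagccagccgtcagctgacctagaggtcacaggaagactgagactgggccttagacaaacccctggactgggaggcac
Igfbp1: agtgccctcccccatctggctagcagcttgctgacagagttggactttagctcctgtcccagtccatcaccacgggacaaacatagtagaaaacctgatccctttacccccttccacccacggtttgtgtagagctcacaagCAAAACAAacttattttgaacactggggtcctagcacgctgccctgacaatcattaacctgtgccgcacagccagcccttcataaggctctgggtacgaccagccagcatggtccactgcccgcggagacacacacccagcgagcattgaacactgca
The first STAT match in Cish begins at the start site itself and the next one 11 bases further on, without overlap. The Igfals match begins at base -58 from the start, and the Igfbp1 match at base -108.

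Both strands were searched for the 2 motifs in all 32851 promoters of the table. TTCNNNGAA was found in 2726 of them, or 8.3%, and more than 1 match in 150, or 0.457%. CAAAACAA was found in 825, or 2.51%. Of the 10 genes, 9 had an entry, with 14 promoters among them. A TTCNNNGAA match was found in 2 of 3 Igfals promoters and in the 1 Cish promoter, and a CAAAACAA match in the 1 Igfbp1 promoter. A match is a description of the letters and was not tested as a binding site, and Socs2 had no entry.

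Total RNA was labelled with biotin and hybridised, and each probe was read as a background-subtracted intensity with a detection p-value against the array's negative controls. Values below are normalised log2 intensities, in which a difference of 1 is a doubling. A probe was kept where its detection p lay below 0.05 on 4 or more of the 16 arrays of a sex. The number of arrays, not read depth, limits the precision. Female arrays detected 44.0% to 47.3% of probes and male arrays 43.7% to 47.2%. Mean raw intensity was lower on HighFat than on Control arrays in females (median 366.5, range 300.0 to 418.1, against a median of 421.7, range 365.8 to 460.8), and in males the medians were 252.9 (range 170.0 to 305.8) and 272.2 (range 247.1 to 308.6). The 4 dimmest female arrays were all HighFat: HighFat 9% replicates 1, 2 and 3 and HighFat 18% replicate 1. Hepatocyte markers had a probe for 16 of 18 listed genes, 15 of them detected on all female arrays and 14 on all male arrays, and of 4 adipocyte markers 0 were detected on all arrays of either sex. Xist was detected on 16 of 16 female arrays and the Y-linked Eif2s3y on 0 of 16 female and 16 of 16 male arrays.

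A probe for each of the 10 genes was present on the female arrays, and 9 genes were detected and tested there among 9446 features. The male arrays had a probe for 9 of them, all but Igfbp3, and 8 were detected and tested among 10297 features. Stat5b was the gene missing from both tests: its probe passed detection on 0 of 16 female and 0 of 16 male arrays, so its level was not well above background in any group and no difference is given. Where a gene had several detected probes, the brightest was tested and the others are given beside it.

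In female livers 1 of the 9 tested genes, Jak2, passed the test for the high-fat diet over both maternal diets, and it was lower in HighFat mice. Over all features 8.78% passed (829 of 9446, of which 437 were higher), so the count of 1 in 9 is near that background. All 9 estimates were below 0, with a median of -0.337 on the log2 scale, while the median over all features was 0.0024 and 49.4% of all features were below 0. In male livers 0 of 8 tested genes passed, against 2.06% of all features (212 of 10297, of which 126 were higher), and 2 of the 8 had an unadjusted p under 0.05 in limma. All 8 male estimates were also below 0, with a median of -0.263 against -0.0028 over all features, of which 50.5% were below 0. The genes were read on the same arrays, so their shared sign is a description and not a test. In whole liver, fewer cells of a type and less RNA per cell cannot be told apart.

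**Figure D1:**
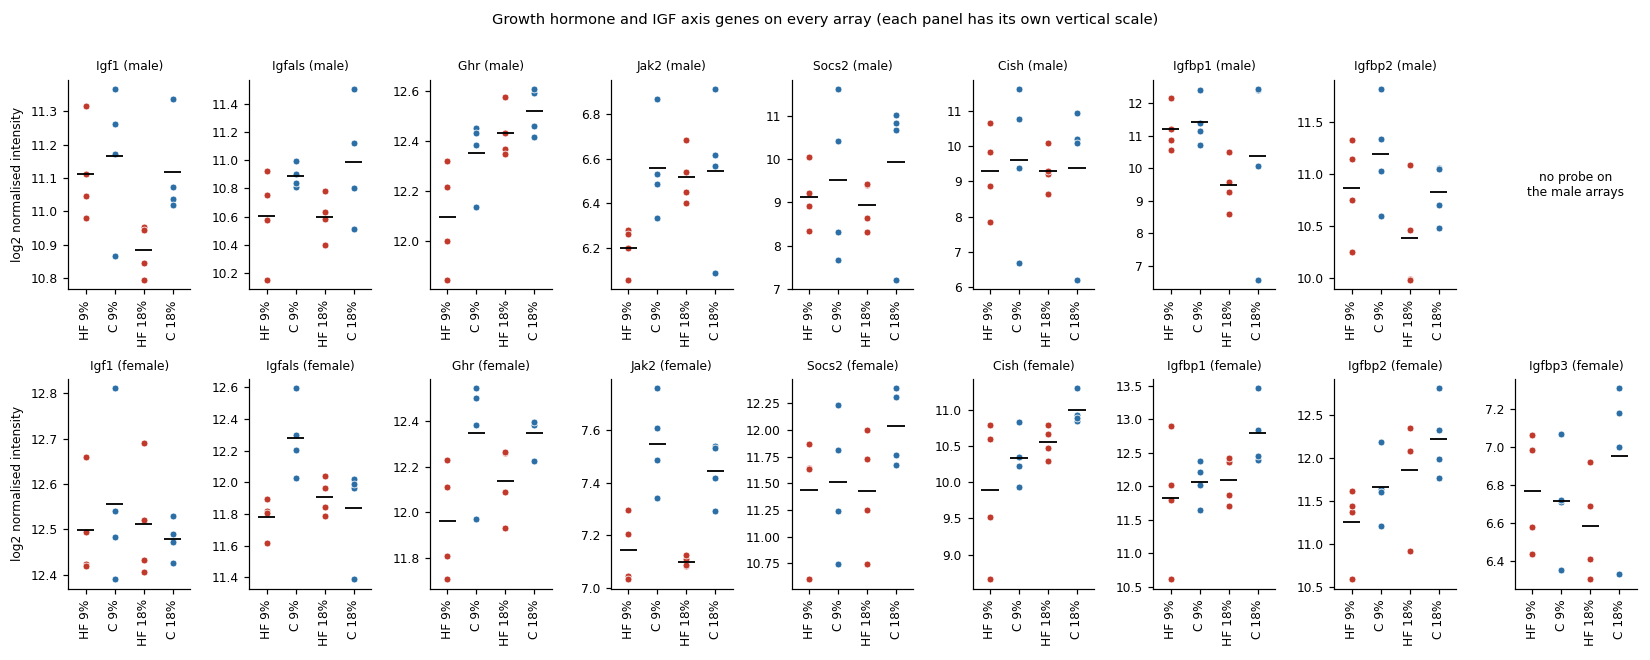
Normalised log2 intensity of the detected genes on each array, males in the upper row and females in the lower row, with HighFat left of Control within each maternal diet (HF, HighFat; C, Control). Each point is 1 array and each bar a group mean; Socs2, Cish and Igfbp1 spread over more than 4 log2 units among males, and female Jak2 lies lower on most HighFat arrays.

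Igf1, the growth factor that the axis makes in liver, had levels of 12.49, 12.66, 12.42 and 12.42 in female HighFat 9% livers, against 12.48, 12.81, 12.39 and 12.54 in female Control 9% livers. In females from mothers on 18% it had 12.52, 12.41, 12.69 and 12.43 in HighFat livers, against 12.49, 12.53, 12.47 and 12.43 in Control livers. The 4 female groups overlapped, and the high-fat difference of -0.01 (SE 0.0659) had an adjusted p of 0.934 in limma, with a 95% interval of -0.151 to 0.127. Igf1 was also among the steadier genes: its residual standard deviation within groups was 0.127 in females, lower than in all but 12.2% of features.

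In males Igf1 stood at 10.95, 10.95, 10.85 and 10.79 in HighFat 18% livers, against 11.07, 11.04, 11.02 and 11.34 in Control 18% livers. These 2 groups did not overlap, which was so for 6.86% of all male features. The Igf1 difference of -0.23 (SE 0.119) had an adjusted p of 0.369. After 9% the values were 11.11, 11.05, 11.31 and 10.98 in HighFat livers, against 11.37, 10.87, 11.26 and 11.17 in Control livers. Those groups overlapped, with a difference of -0.05 (SE 0.119, adjusted p = 0.925). Over both maternal diets the male difference was -0.14 (SE 0.0843, adjusted p = 0.408). Igf1 was read by a different probe in each sex.

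The features most like Igf1 across the 16 arrays of a sex were named by their Pearson correlation with it, as a description in which all points share arrays and groups. In females these were Trp53bp1 (r = 0.779), Cyb561a3 (0.770), Bahd1 (0.759), an unnamed probe (0.754) and Zdhhc12 (0.738). In males they were Tsr1 (r = 0.799), Ccdc125 (0.782), an unnamed probe (0.776), Smarca5-ps (0.761) and Ddx5 (0.760). None of the 5 female features was among the 5 male features.

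Igfals, the acid-labile subunit, was lower in female HighFat 9% than in female Control 9% livers. Its levels were 11.62, 11.82, 11.80 and 11.89 in HighFat 9% livers, against 12.03, 12.21, 12.59 and 12.30 in Control 9% livers. The groups did not overlap, which was so for 10.9% of all female features in this comparison. The difference was -0.50 (SE 0.137, 95% interval -0.787 to -0.209), or 1.41-fold lower, with an adjusted p of 0.0485 in limma. In this comparison 2 of 9 genes passed, Igfals and Jak2, against 4.35% of all features (411 of 9446).

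After 18% Igfals had 11.85, 11.96, 11.79 and 12.04 in female HighFat livers, against 12.02, 11.96, 11.99 and 11.39 in female Control livers. The groups overlapped, with HighFat replicate 4 the highest and Control replicate 4 the lowest, and the difference was 0.07 (SE 0.137, adjusted p = 0.882). Without that array the Igfals difference over both maternal diets was -0.29 with an adjusted p of 0.0328, against -0.21 and 0.174 with it. The interaction, the difference after 9% minus that after 18%, was -0.57 (SE 0.193), with an unadjusted p of 0.00944 and an adjusted p of 0.875. Among the female groups Control 9% stood apart with the highest mean, 12.28. The means were 11.78 in HighFat 9%, 11.91 in HighFat 18% and 11.84 in Control 18% livers.

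The call on Igfals moved with the brightness of the arrays and with single arrays. With mean raw intensity as a covariate the difference after 9% was -0.38 (adjusted p = 0.502), and without the 4 dimmest female arrays it was -0.39 (adjusted p = 0.661), a fit that left 1 HighFat 9% array. The Igfals difference passed in 3 of the 16 fits without 1 array, those without Control 9% replicate 1, HighFat 9% replicate 4 or Control 18% replicate 4. Over all 16 its adjusted p was 0.0197 to 0.130. The part of brightness in the difference was not tested.

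In males Igfals stood at 10.75, 10.15, 10.93 and 10.58 in HighFat 9% livers, against 11.00, 10.81, 10.91 and 10.84 in Control 9% livers. After 18% it stood at 10.58, 10.78, 10.63 and 10.40 in HighFat livers, against 11.50, 10.51, 11.12 and 10.80 in Control livers. The groups overlapped after each maternal diet, and over both the difference was -0.34 (SE 0.132, unadjusted p = 0.0212, adjusted p = 0.221). Features most like Igfals by correlation were A730008H23Rik (r = 0.845), Nat8f2 (0.841), Slc30a9 (0.837), Ces3b (0.834) and Gcgr, the glucagon receptor (0.817), in females. They were Dhx57 (r = 0.857), Dcaf5, Nuak2, Klkb1 and Notum (0.823) in males.

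The receptor gene Ghr showed a difference in females that lay close to the threshold. Its levels were 11.71, 12.11, 11.81 and 12.23 in HighFat 9% livers, against 12.54, 11.97, 12.50 and 12.38 in Control 9% livers. After 18% they were 11.93, 12.26, 12.09 and 12.26 in HighFat livers, against 12.38, 12.38, 12.39 and 12.22 in Control livers. Control 9% replicate 2 and Control 18% replicate 4 lay among the HighFat arrays, so the groups overlapped on both diets.

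Over both maternal diets the female Ghr difference was -0.30 (SE 0.0929, 95% interval -0.493 to -0.100), with an adjusted p of 0.0567 in limma. It passed under median scaling (-0.38, adjusted p = 0.0304), with the mean of detected probes (-0.21, 0.0490) and with array weights (-0.33, 0.0244), and without Control 9% replicate 2 (-0.36, 0.0171) or HighFat 9% replicate 4 (-0.34, 0.0279). With brightness as a covariate it was -0.13 (adjusted p = 0.612), and Ghr followed mean raw intensity across the 16 female arrays with r = 0.768. After 9% alone it was -0.38 (SE 0.131, adjusted p = 0.107), and it passed there under median scaling (0.0383), with array weights (0.0422) and without the same 2 arrays (0.0379 and 0.0471). A second Ghr probe, annotated to another transcript, differed by -0.13 (SE 0.0641, adjusted p = 0.206), so the mean of detected probes joins different transcripts. The part of brightness in this difference was not tested.

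In males Ghr had 12.32, 11.84, 12.22 and 12.00 in HighFat 9% livers, against 12.45, 12.14, 12.43 and 12.38 in Control 9% livers. After the 18% maternal diet it had 12.58, 12.37, 12.43 and 12.35 in HighFat livers, against 12.42, 12.59, 12.61 and 12.46 in Control livers. HighFat and Control arrays overlapped after each maternal diet, with an adjusted p of 0.292 over both (-0.17, SE 0.0792). Within HighFat males every 9% array was below every 18% array, a maternal difference of -0.34 (SE 0.112, unadjusted p = 0.00796, adjusted p = 0.694).

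Jak2, the kinase that the receptor activates, fell in HighFat females. Its probe ILMN_1245579 gave 7.20, 7.04, 7.30 and 7.03 in HighFat 9% livers, against 7.34, 7.61, 7.76 and 7.49 in Control 9% livers. After 18% it gave 7.11, 7.12, 7.08 and 7.08 in HighFat livers, against 7.54, 7.29, 7.42 and 7.53 in Control livers. The diet groups did not overlap within either maternal diet. Of all female features 10.9% had diet groups without overlap after 9% and 7.27% after 18%. Pooled over maternal diets the Jak2 values of the diets touched only through HighFat 9% replicate 3, which lay above Control 18% replicate 2.

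The Jak2 means over both maternal diets were 7.12 in HighFat and 7.50 in Control females, a difference of -0.38 (SE 0.0748, 95% interval -0.533 to -0.217) or 1.30-fold, with an adjusted p of 0.0076 in limma. After 9% alone the difference was -0.40 (SE 0.106, adjusted p = 0.0405), and after 18% alone -0.35 (SE 0.106, adjusted p = 0.234). After 18%, 0 of 9 genes and 0.0847% of all features (8 of 9446) passed, and 1 gene, Jak2, had an unadjusted p under 0.05. The interaction for Jak2 was -0.06 (SE 0.150, adjusted p = 0.962), so the difference between the maternal diets was within its error.

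Over both maternal diets the Jak2 call held in each of the 16 fits without 1 array, with an adjusted p of 0.00636 to 0.0174. It was lost with brightness as a covariate (-0.40, adjusted p = 0.116) and without the 4 dimmest arrays (-0.43, adjusted p = 0.113). The size was as large in both, while the features that passed in these fits were 11 and 12 in all, against 829. After 9% alone the Jak2 call held in 5 of the 16 fits without 1 array, those without Control 9% replicate 1, HighFat 18% replicate 1 or Control 18% replicates 1, 2 or 4. A second Jak2 probe on the female arrays was detected on all 16 and annotated to another transcript. It differed by -0.18 over both maternal diets (SE 0.0976, adjusted p = 0.275), and another probe was detected on 0 of 16. Of 16 hepatocyte markers tested in females 2 passed over both maternal diets, where 8.78% of all features passed. Their summed level, in linear units, overlapped between the diets. It was 191600 to 199900 in HighFat 9% and 181000 to 204400 in Control 9% females. After 18% it was 190000 to 202800 in HighFat and 192800 to 213600 in Control females. Summed endothelial markers overlapped after 18% and not after 9% (8225 to 9430 in HighFat, 9493 to 10770 in Control). Summed cholangiocyte markers overlapped after 9% and not after 18% (97.78 to 113.5 in HighFat, 118.4 to 137.5 in Control). The part of cell types in the Jak2 difference was not tested.

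In males Jak2 stood at 6.28, 6.20, 6.06 and 6.27 in HighFat 9% livers, against 6.87, 6.34, 6.53 and 6.49 in Control 9% livers. These groups did not overlap, which was so for 7.63% of all male features. The Jak2 difference was -0.35 (SE 0.162, unadjusted p = 0.0435, adjusted p = 0.476). After 18% it stood at 6.45, 6.40, 6.68 and 6.54 in HighFat livers, against 6.09, 6.62, 6.91 and 6.57 in Control livers, where the groups overlapped. A second male probe, detected on 13 of 16 arrays, differed by 0.20 over both maternal diets (SE 0.092, adjusted p = 0.305), opposite in sign to the -0.19 (SE 0.115, adjusted p = 0.419) of the tested probe. In the separate maternal diets 0 of 8 genes passed in males, against 0.631% of all features after 18% (65 of 10297) and 0.107% after 9% (11 of 10297); 0 and 2 genes had an unadjusted p under 0.05.

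**Figure D2:**
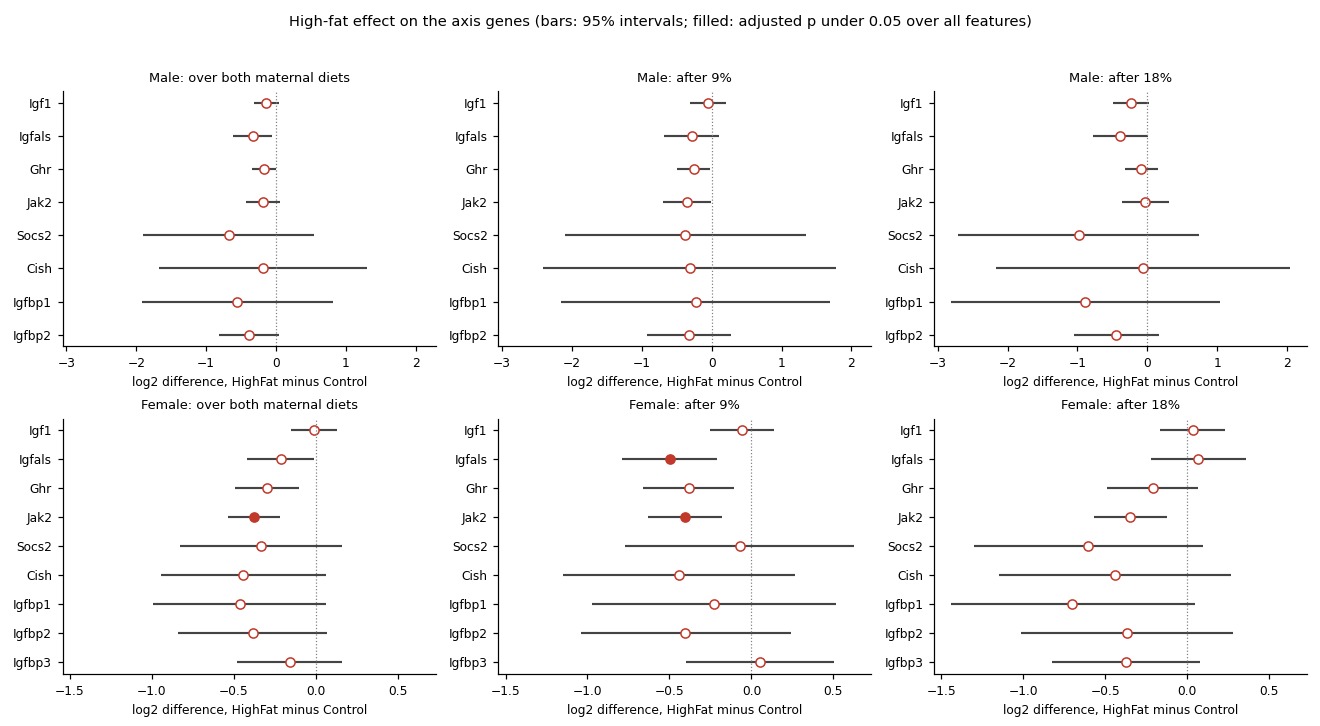
HighFat minus Control difference of each detected gene on the log2 scale, males above females with their own scales, over both maternal diets and after each; points are estimates, lines 95% intervals and filled points adjusted p under 0.05. Every estimate over both maternal diets lies below 0, filled points are female Jak2 and, after 9%, female Igfals, and the widest intervals are those of male Socs2, Cish and Igfbp1.

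The feedback inhibitors Socs2 and Cish, both targets of STAT5 signalling, did not pass the test for diet in either sex. Socs2 had 11.64, 10.60, 11.63 and 11.87 in female HighFat 9% livers, against 11.24, 12.23, 11.81 and 10.74 in female Control 9% livers. After 18% Socs2 had 11.73, 12.00, 11.25 and 10.74 in female HighFat livers, against 11.67, 12.39, 11.77 and 12.30 in female Control livers. The groups overlapped in both cases, and the difference over both maternal diets was -0.34 (SE 0.234, adjusted p = 0.396).

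In males Socs2 had 9.22, 10.04, 8.34 and 8.92 in HighFat 9% livers, against 8.32, 10.41, 7.68 and 11.61 in Control 9% livers. In the 18% groups the levels were 9.40, 9.43, 8.32 and 8.64 in HighFat livers, against 7.21, 10.66, 10.83 and 11.02 in Control livers. The HighFat arrays all lay inside the range of the Control arrays, whose lowest and highest values were 21.1-fold apart. The mean difference was -0.68 with an SE of 0.578, an interval of -1.90 to 0.541 and an adjusted p of 0.569.

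Cish, a close relative of Socs2, had 10.60, 8.66, 9.52 and 10.79 in female HighFat 9% livers, against 10.22, 10.83, 9.94 and 10.35 in female Control 9% livers. In the 18% groups it had 10.79, 10.67, 10.47 and 10.29 in female HighFat livers, against 11.30, 10.85, 10.94 and 10.90 in female Control livers. The female groups overlapped after 9% and not after 18%, where 7.27% of all female features had groups without overlap. The Cish differences were -0.44 after each (SE 0.335, adjusted p = 0.481 after 9% and 0.634 after 18%).

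In males Cish had 7.86, 10.64, 8.86 and 9.84 in HighFat 9% livers, against 9.38, 10.78, 6.69 and 11.61 in Control 9% livers. After 18% it had 9.20, 10.08, 8.63 and 9.30 in HighFat livers, against 6.21, 10.21, 10.10 and 10.94 in Control livers. The same Control arrays that were lowest for Socs2 were lowest here, Control 9% replicate 3 and Control 18% replicate 1. The groups overlapped, with a difference of -0.19 (SE 0.702, 95% interval -1.67 to 1.30, adjusted p = 0.922), so a difference of about 2-fold in either direction lies inside the interval.

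Among the binding proteins, Igfbp1 behaved like the inhibitors in its spread. It had 11.79, 10.62, 12.02 and 12.91 in female HighFat 9% livers, against 12.21, 12.38, 12.02 and 11.65 in female Control 9% livers. After the 18% maternal diet it had 11.71, 12.36, 12.42 and 11.87 in female HighFat livers, against 12.40, 12.46, 12.84 and 13.46 in female Control livers. The groups overlapped on both maternal diets, by 1 pair of arrays after 18%, and the difference over both was -0.46 (SE 0.249, adjusted p = 0.262).

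In males Igfbp1 had 10.88, 12.16, 10.57 and 11.21 in HighFat 9% livers, against 11.17, 11.40, 10.72 and 12.43 in Control 9% livers. In the 18% groups the levels were 9.26, 10.52, 8.61 and 9.58 in HighFat livers, against 6.57, 12.43, 10.08 and 12.44 in Control livers. The diet groups overlapped, and the difference over both was -0.55 (SE 0.646, adjusted p = 0.688). Within HighFat males every 9% array lay above every 18% array, a maternal difference of 1.71 (SE 0.914, 95% interval -0.218 to 3.64) or 3.28-fold, with an adjusted p of 0.699 in limma. The SE, interval and p rest on a spread pooled over the 4 male groups. The standard deviation was 0.689 in HighFat 9%, 0.796 in HighFat 18%, 0.724 in Control 9% and 2.77 in Control 18% males. In the fit on only the 2 groups compared, 0 genes of the axis passed.

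Igfbp2, another binding protein made by the liver, had 10.59, 11.37, 11.45 and 11.62 in female HighFat 9% livers, against 11.64, 11.21, 12.19 and 11.60 in female Control 9% livers. In the 18% groups it had 10.91, 12.09, 12.35 and 12.09 in female HighFat livers, against 11.77, 11.99, 12.82 and 12.33 in female Control livers. The groups overlapped, and the tested probe differed by -0.38 (SE 0.215, adjusted p = 0.284). A second Igfbp2 probe gave -0.65 (SE 0.216, adjusted p = 0.0672).

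In males Igfbp2 had 11.14, 10.24, 11.33 and 10.75 in HighFat 9% livers, against 10.59, 11.34, 11.82 and 11.03 in Control 9% livers. After 18% it had 9.99, 10.46, 11.09 and 9.98 in HighFat livers, against 10.48, 11.06, 10.70 and 11.05 in Control livers. The groups overlapped on both maternal diets, with a difference of -0.39 (SE 0.202, adjusted p = 0.355). Female Igfbp3, the main carrier of IGF1 in blood, ranged from 6.30 to 7.31 over all 16 arrays. Its groups overlapped, with a difference of -0.16 (SE 0.152, adjusted p = 0.555).

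The maternal diet, 9% against 18%, was tested within each offspring diet. In females 0 of 9 genes and 0% of all features passed on the control diet, and 0 of 9 and 0% on the high-fat diet, where 593 and 898 features had an unadjusted p under 0.05 in limma. In males 0 of 8 genes and 0% of features passed on either diet, with 379 and 713 features at an unadjusted p under 0.05. The interaction passed for 0 genes and 0% of features in each sex, with 500 female and 699 male features under 0.05 unadjusted.

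The gene with the smallest maternal p was female Igfals on the control diet, at 12.28 ± 0.24 in Control 9% and 11.84 ± 0.30 in Control 18% livers (SD, n = 4 each), a difference of 0.44 (SE 0.137, unadjusted p = 0.00507, adjusted p = 0.527). On the same diet Cish differed by -0.66 (SE 0.335, adjusted p = 0.814) and Igfbp1 by -0.73 (SE 0.353, adjusted p = 0.801), and for these 3 genes the groups did not overlap. Over all female features 3.18% had groups that did not overlap in this comparison. In HighFat males 4 of 8 genes had maternal groups that did not overlap, against 3.38% of all features. These were Igfbp1 and Igf1 (0.23, SE 0.119, adjusted p = 0.694), higher after 9%, and Ghr and Jak2 (-0.32, SE 0.162, adjusted p = 0.694), lower after 9%.

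The high-fat difference was then compared between the sexes, male minus female, over 6941 genes measured in both, of which 0.0432% (3) passed and 739 had an unadjusted p under 0.05. Of the 8 shared genes 0 passed, and their lowest adjusted p was 0.649, for Jak2. Igf1 and Igfbp2 were read by a different probe in each sex. The Igfbp2 probe tested in males gave -0.39 there and -0.65 in females. The Jak2 differences, -0.19 in males and -0.38 in females, were 0.19 apart (SE 0.132), and the Socs2 differences were -0.34 apart (SE 0.673). Jak2 passed in females and not in males, and the test of that difference did not pass.

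Mice of 1 group lay far from each other in Socs2, Cish and Igfbp1. Their within-group standard deviations in males were 1.36, 1.66 and 1.53 log2 units, against a median of 0.226 over all features. Of 10297 male features 16, 7 and 12 were more variable. Without male Control 18% replicate 1 the standard deviations were 1.07, 1.34 and 0.884, so that array moved Igfbp1 by more than 1.5 times. In females the same genes had 0.544, 0.551 and 0.582, against a median of 0.200, and more than 97% of features were less variable than each. Without the 4 dimmest female arrays they were 0.556, 0.278 and 0.387. Igfbp2 was also more variable than most features, at 0.499 in females (96.6% of features lower) and 0.462 in males (93.3% lower).

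For the 4686 genes read by the same probe in both sexes, the male standard deviation was 1.22 times the female one at the median. It was 2.51 times for Socs2, 3.01 times for Cish and 2.62 times for Igfbp1, above the ratios of 97%, 98.9% and 97.5% of these genes. Without male Control 18% replicate 1 the ratios were 1.96, 2.43 and 1.52. From lowest to highest male array the genes spanned 21.1-fold, 42.3-fold and 58.7-fold, and over the female arrays 3.45-fold, 6.22-fold and 7.20-fold. Single arrays set much of these spans: the male Igfbp1 span was 14.2-fold without Control 18% replicate 1, the male Socs2 and Cish spans 14.0-fold and 26.6-fold without Control 9% replicate 4, and the female Cish and Igfbp1 spans 3.43-fold and 3.51-fold without HighFat 9% replicate 2. Igf1, read by a different probe in each sex, spanned 1.49-fold in males and 1.34-fold in females. The sexes were run on different array versions, so version and sex cannot be told apart in this comparison.

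**Figure D3:**
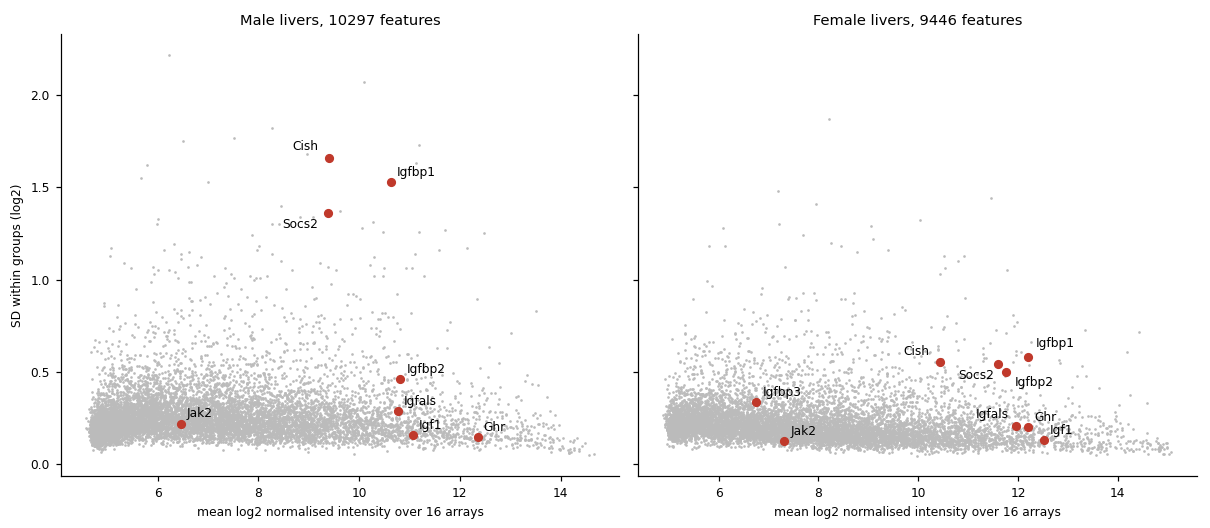
Within-group standard deviation against mean level (both log2) of all tested features, males left and females right, with the detected genes of the axis named. Male Socs2, Cish and Igfbp1 lie between 1.36 and 1.66, near the top of all features, and Igf1 lies below the median of 0.226 in males and 0.200 in females.

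In males the spread of these 3 genes was wider among Control mice. Pooled over maternal diets, the standard deviation of Socs2 was 0.636 in HighFat and 1.82 in Control males, a ratio of 0.349, and 1.21% of features had a lower ratio. For Cish it was 0.950 in HighFat and 2.15 in Control males (ratio 0.443, 3.32% of features lower), and for Igfbp1 0.744 in HighFat and 2.03 in Control males (ratio 0.367, 1.51% lower). The median ratio over all male features was 1.13. Among the other axis genes the male ratio ran from 0.392 for Jak2 (2.07% of features lower) to 1.36 for Ghr (63.7% lower). Without Control 18% replicate 1 the ratios of Socs2, Cish and Igfbp1 were 0.448, 0.561 and 0.724. For Igfbp1 much of the width came with that array, and the standard deviation after 9% was 0.689 in HighFat and 0.724 in Control males.

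Females did not share that order in Socs2, Cish and Igfbp1. Their standard deviations for HighFat and Control livers were 0.559 and 0.528 for Socs2, 0.719 and 0.301 for Cish, and 0.713 and 0.411 for Igfbp1, with a median ratio of 0.971 over all features. Among the other axis genes the female ratio ran from 0.428 for Igfals (3.91% of features lower) to 1.29 for Igfbp2 (73.4% lower). Without female HighFat 9% replicate 2 the ratio was 1.54 in place of 2.39 for Cish and 1.13 in place of 1.73 for Igfbp1. Each of these standard deviations has 6 degrees of freedom, and the difference in spread between the diets was noticed in these values and not tested. Male Control 18% replicate 1 was the lowest of the 16 male arrays for each of these genes, at 7.21 for Socs2, 6.21 for Cish and 6.57 for Igfbp1.

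The same mice were high or low for all 3 genes. After group means were removed, male Socs2 and Cish correlated with r = 0.903 (permutation p = 0.0007) and rho = 0.921 (permutation p = 0.00035) over 16 arrays. For Socs2 and Igfbp1 r was 0.791 (permutation p = 0.00045) and rho 0.753 (permutation p = 0.00051), and for Cish and Igfbp1 r was 0.800 (permutation p = 8e-05) and rho 0.874 (permutation p = 4e-05). Adjusted over the 64 pairs of genes of the axis, the p for r was 0.0149, 0.0144 and 0.00512 and that for rho 0.0109, 0.0109 and 0.00256.

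Of the 28 male pairs these 3 passed, and of the 36 female pairs 0 passed. Without the 2 arrays farthest from the median of the first gene, the male r was 0.785 for Socs2 and Cish, 0.616 for Socs2 and Igfbp1 and 0.707 for Cish and Igfbp1. Leaving out 1 array at a time gave 0.833 to 0.950, 0.574 to 0.827 and 0.636 to 0.887. Within groups the 3 genes correlated with mean raw intensity of the male arrays at r = 0.258, 0.274 and 0.298.

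In females the corresponding r was 0.531 (adjusted p = 0.301) for Socs2 and Cish, 0.613 (adjusted p = 0.140) for Socs2 and Igfbp1 and 0.611 (adjusted p = 0.621) for Cish and Igfbp1. The female value for Cish and Igfbp1 was 0.122 without the 4 dimmest arrays and -0.0831 without the 2 arrays farthest from the Cish median, so it rested on those arrays. The difference in correlation between the sexes was not tested. In males Igfals ran the other way, with r = -0.767 against Igfbp1 (permutation p = 0.0115, adjusted p = 0.123).

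**Figure D4:**
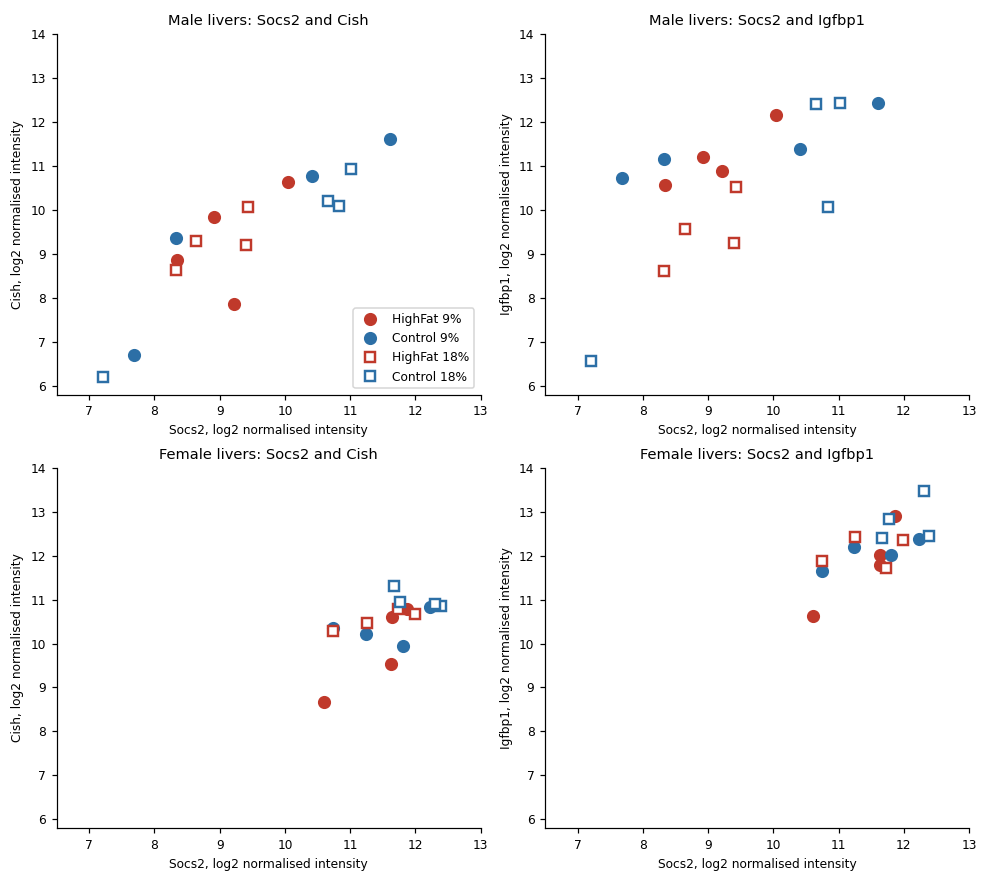
Cish (left) and Igfbp1 (right) against Socs2 on each array, in normalised log2 intensity, males above females; each point is 1 array, coloured by offspring diet and shaped by maternal diet. Male Cish rises with Socs2 from the low Control 18% replicate 1 to Control arrays above 10 (r = 0.867 over 16 arrays, group means kept). Male Igfbp1 scatters more (r = 0.694), and HighFat males lie in the middle of the Socs2 range.

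Other genes of the same pathway were described through lists. Of 63 further genes of growth hormone and IGF signalling, 42 were tested in females, where 0 rose and 8 fell with the high-fat diet over both maternal diets (median -0.0616), where 4.15% of all 9446 features fell. The first by p were Socs4, a relative of Socs2 (-0.41, SE 0.0916, adjusted p = 0.0127), Irs2, an adaptor of the insulin and IGF1 receptors (-0.87, SE 0.211, adjusted p = 0.0199), and Hnf4a, a hepatocyte transcription factor (-0.32, SE 0.0873, adjusted p = 0.0313). Foxa1 (-0.45, adjusted p = 0.0336), Egfr, the epidermal growth factor receptor (-0.75, adjusted p = 0.0340), and Nr3c1, the glucocorticoid receptor (-0.47, adjusted p = 0.0354), followed.

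Irs2 ranged from 8.08 to 9.55 (median 8.85) in HighFat and 8.94 to 10.46 (median 9.65) in Control females, so the diets overlapped. Socs4 ranged from 5.26 to 5.59 in HighFat and from 5.64 to 6.19 in Control females, without overlap, as did 0.953% of all female features. Without 1 array the count of 8 became 2 to 7, 5 or fewer in every fit but that without HighFat 9% replicate 4, and it was 0 with brightness as a covariate and 0 without the 4 dimmest arrays. Under median scaling it was 14. In males 37 of the 63 were tested, and 0 rose and 0 fell (median -0.134).

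Liver genes known to depend on the pattern of growth hormone in a sex-biased way made up 2 further lists. In males 17 of 24 male-biased genes were tested, of which 0 rose and 6 fell in HighFat livers (median -0.514), where 0.835% of all 10297 features fell. They were Gstp1, a glutathione transferase (-0.78, SE 0.0952, adjusted p = 0.000389), the complement genes C8b (-1.19, SE 0.159, adjusted p = 0.00096), C6 (-0.82, adjusted p = 0.0088) and C8a (-0.51, adjusted p = 0.0138), Cyp7b1, an oxysterol hydroxylase (-1.07, adjusted p = 0.00966), and Susd4 (-1.50, adjusted p = 0.0309). Gstp1 ranged from 12.91 to 13.72 in HighFat and 13.94 to 14.35 in Control males, and C8b from 9.42 to 10.82 in HighFat and 11.03 to 11.49 in Control males. Neither gene overlapped between the diets, which was so for 0.505% of all male features. The count was 5 or 6 in every other setting and every fit without 1 array.

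Of 27 female-biased genes 11 were tested in males, of which 3 rose and 0 fell (median 0.756), where 1.22% of all features rose. A gene low in Control males could be kept through detection on HighFat arrays only, which can tilt this median upward. Cyp2b9, for example, had a mean of 6.35 in HighFat and 4.98 in Control males, where the undetected Stat5b probe had 4.44. With no detection filter the count that rose was also 3. Cyp17a1, the steroid 17-hydroxylase, rose by 2.76 (SE 0.378, adjusted p = 0.00096), to 8.14 to 10.86 in HighFat livers, against 5.55 to 7.58 in Control livers. Cyp4a14 (2.06, SE 0.490, adjusted p = 0.0362) and Cyp4a10 (0.82, SE 0.194, adjusted p = 0.0353), fatty acid hydroxylases that are also targets of PPAR-alpha, rose as well. Cyp4a14 ranged from 11.86 to 13.13 in HighFat and 8.95 to 13.48 in Control males, with overlap. The Cyp4a genes have near-identical copies that a probe may not separate, so their values are uncertain. Without 1 array the count of 3 became 1 to 4, with 1 left without HighFat 9% replicates 2, 3 or 4, Control 9% replicates 1 or 4, HighFat 18% replicates 3 or 4, or Control 18% replicates 2 or 3, and it was 1 without the dimmest male array and 1 with brightness as a covariate.

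In females the genes that passed went in both directions over both maternal diets, where 4.63% of all features rose and 4.15% fell. Of 12 tested male-biased genes 2 rose, Mup20 (1.06, SE 0.195, adjusted p = 0.005) and Selenbp2 (0.35, SE 0.0982, adjusted p = 0.0354), and 2 fell, C8b (-0.82, SE 0.201, adjusted p = 0.0202) and Egfr. Mup20 encodes a major urinary protein, a family of near-identical genes, and its value is uncertain for that reason. Of 14 tested female-biased genes 1 rose, Cyp17a1 (1.04, SE 0.171, adjusted p = 0.00256), and 1 fell, Abcd2, a peroxisomal transporter (-0.41, SE 0.103, adjusted p = 0.0226). Of all features 8.78% passed. With brightness as a covariate 0 genes of either list passed in females. The difference of these lists between the sexes was not tested.

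**Figure D5:**
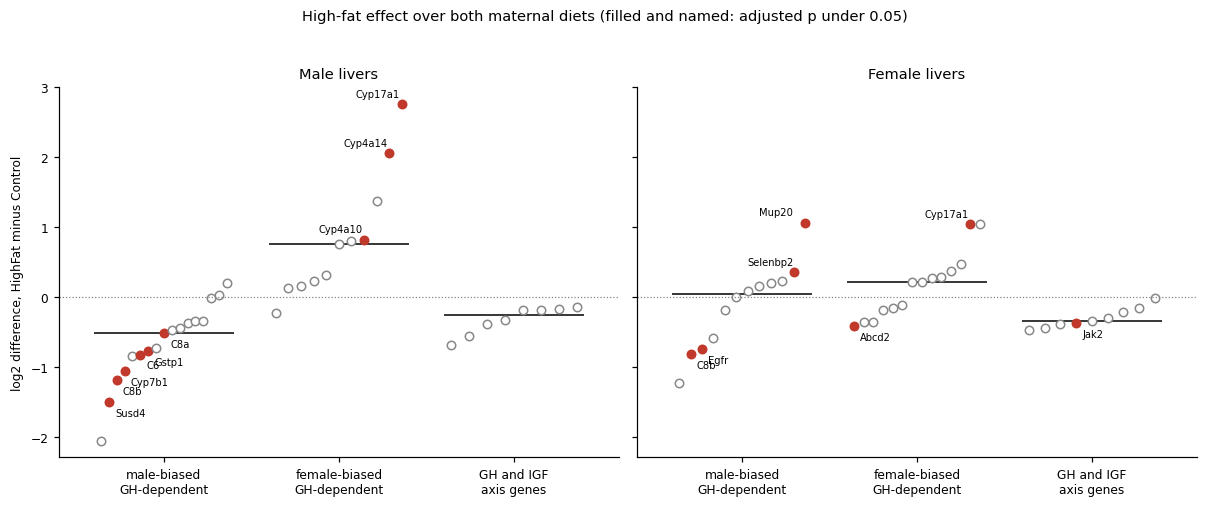
HighFat minus Control difference over both maternal diets (log2) of the tested genes of the male-biased list, the female-biased list and the axis, males left and females right; each point is 1 gene, filled where the adjusted p is under 0.05 and then named, and bars are list medians. In males the medians are -0.514 (male-biased), 0.756 (female-biased) and -0.263 (axis), and in females 0.0429, 0.211 and -0.337.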

How the data were processed

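Bead intensities of 32 mouse liver arrays were analysed, 16 per sex. The deposited intensity values carry a background subtraction but no normalisation between arrays, with a detection p-value per probe and array, per the file headers and the values; the program was BeadStudio, per the submitters' processing notes, with no version. A second deposited table holds intensities that the authors had quantile normalised, as its values show, and served as an alternative.

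Each sex was processed alone in R 4.3.3 with limma 3.58.1: neqc (normexp background correction against negative controls that limma infers from detection p-values, offset 16, quantile normalisation, log2), probes with detection p under 0.05 on at least 4 arrays, the brightest probe per gene, lmFit on the 4 groups and eBayes with a trend. Tests were 2-sided, with Benjamini-Hochberg adjustment over all features tested and a threshold of 0.05. Intervals are 95% intervals of the fit and leave out adjustment. Correlations within groups used 100000 permutations of arrays within groups. Figures used Python 3.11.15 and matplotlib 3.10.9.

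Probe names came from the platform annotation: 23978 of 25697 female and 20984 of 24613 male probes had 1 symbol, and 1 male probe had several. The arrays held 0 identical pairs; the highest correlation between arrays was 0.9911. The labels give no pairing of mice by replicate number, and the main fit used none. Deviations of same-numbered arrays correlated with a median r of 0.0571 in females and 0.0616 in males, and 10 of 24 pairs in each sex were over 0.1. The highest r was 0.32 in females and 0.49 in males. For the other pairs of arrays the median r was -0.0305 in females and -0.0112 in males, so a weak pairing cannot be told from none. The fit was tested on simulated data.

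The 10 genes and the gene lists were chosen with earlier results of these data known, so no list gets a test of its own. Named genes followed a rule: all 10 genes, up to 6 genes per further list and comparison by smallest p among those past the threshold, and the 5 features most like Igf1 and Igfals. Alternatives covered background correction, offset, normalisation, filter, probe choice, trend, array weights, brightness, the replicate block and leaving out each array.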

Additional observations from a re-analysis of the deposited data

Results flagged for a closer look

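In groups of 4 arrays, a single array can stand so far from the other 3 that its gap to the nearest exceeds the usual 95% critical share of the group's whole range (Dixon's test). Of 68 groups of axis genes tested in this way 4 did so, where chance gives about 1 in 20. All 4 were in Control 18% groups. Igf1 stood at 11.34 on male array 4, above 11.02 to 11.07 on the other arrays. Igfals stood at 11.39 on female array 4, below 11.96 to 12.02, and on the same array Ghr stood at 12.22, below 12.38 to 12.39. Socs2 stood at 7.212 on male array 1, below 10.66 to 11.02. The causes were not tested.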

How the results depend on the processing

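Each result was recomputed under 14 other settings and without each of the 32 arrays in turn. No difference changed sign with a call on either side. For the 11 comparisons in which 0 genes passed, the count stayed 0 in each of these fits. Over both maternal diets in females, the count of 1 became 2 under median scaling, 2 with the mean of detected probes and 2 with array weights. It became 0 with brightness (log2 mean raw intensity) as a covariate and 0 without the dimmest arrays. After 9% in females the count of 2 became 3 under median scaling, 1 with the mean of detected probes, 1 without the trend in eBayes, and 0 with no detection filter, with only the 2 groups compared, with the covariate or without the dimmest arrays. With array weights it stayed 2, but Ghr passed (-0.47, adjusted p = 0.0422) and Jak2 did not (-0.36, adjusted p = 0.0614). Leaving out 1 array gave 1 to 2 over both maternal diets and 0 to 2 after 9%. The cause was not tested; without the dimmest arrays 1 HighFat 9% array is left, which is assumed to vary like the other groups.

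With the replicate number as a block, a pairing that the labels do not give, the female count after 9% was 1. Igfals then had an adjusted p of 0.0596 in limma, and no other count of axis genes moved. The slide as a block was not run, since the headers give no slide, and the fit on only the 2 groups compared was not run over both maternal diets, for the interaction or for the sex difference. Of the 3385 recomputed values of single genes, 1432 other-setting and 1737 leave-one-out values kept their sign and their side of the threshold. Another 46 and 122 changed sign with no call on either side, 5 and 5 gained a call, and 14 and 24 lost one. Under 4 other preparations of the values and without the dimmest arrays, chosen after seeing the data, the male r of Socs2 and Cish was 0.901 to 0.912, of Socs2 and Igfbp1 0.785 to 0.814 and of Cish and Igfbp1 0.796 to 0.816. Signal over background limits Stat5b, which was not measurable with its probe, and Jak2, whose raw signal was 83.42 to 247.7 in females and 45.71 to 114.4 in males. It also limits male Susd4, whose lowest HighFat value was 4.90, where the undetected male Stat5b probe had a mean of 4.44.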

Other observations

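Of the other pathway genes tested in males, Onecut1 (HNF6), a liver transcription factor known to respond to growth hormone, had the highest correlation with Socs2 across all 16 arrays (r = 0.847); it was chosen after its values were seen. After removal of group means its r was 0.916 with Socs2, 0.865 with Cish and 0.652 with Igfbp1 over 16 male arrays, and 0.391, 0.428 and 0.0808 over 16 female arrays. Bcl6, a repressor known to oppose STAT5 at liver genes and also chosen after its values were seen, had r of -0.49, -0.603 and -0.491 with the same genes in males and 0.0402, -0.331 and -0.263 in females. Male Onecut1 ranged from 4.73 to 6.65, and its low end lies near the mean of 4.44 of the undetected male Stat5b probe. These points share arrays and normalisation, and no test was made on them.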
